A study of Drosophila melanogaster with 72 samples.

Results

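Yolk protein transcripts were examined in adult males of Drosophila melanogaster through the genes Yp1 (FBgn0004045), Yp2 (FBgn0005391) and Yp3 (FBgn0004047). They were picked by FlyBase symbol and not by a cutoff on their values, with earlier results of these data known. They make up 3 of the 17324 features counted. The libraries come from a crossing design in which females carrying mitochondrial haplogroup B38, B39, I02, N01, N02 or N23 were mated with males carrying Y haplotype B04, B11, N03, N07, ZH23 or ZW139. All haplotypes derive from the Global Diversity Lines, and the parental replacement lines share the 4361 nuclear background, which every group therefore carries. Each of the 36 combinations was sequenced in 2 libraries from separate crosses, each from a pool of 10 whole males aged 3 to 5 days, so that every haplotype is represented by 12 of 72 libraries. Each haplotype stands for 1 line. A son takes his X chromosome from the same mother as his mitochondria, and all 3 yolk protein genes lie on the X, so that a haplogroup and the X of its maternal line cannot be told apart. Per the labels, replicate 2 of each N01, N02 and N23 combination, 18 libraries in all, makes up batch 2, and batch 1 holds the other 54.

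Yolk proteins are the main storage proteins of the fly egg. In females they are made by the fat body and by the follicle cells of the ovary, secreted into the haemolymph and taken up by the oocyte through the receptor Yolkless. The sex determination gene doublesex controls their transcription in the fat body, where its female protein activates and its male protein represses them, and ecdysone and juvenile hormone act on them as well. Males normally make little yolk protein, so that reads of these genes in a male library can come from low expression in males or from female tissue carried into the pool. The markers of female tissue are therefore given beside the yolk protein genes, and the part of each source was not tested.

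Yp1 and Yp2 are neighbours that are transcribed away from each other, and Yp3 lies elsewhere on the X. By Ensembl release 115 for assembly BDGP6.54, Yp2 spans X:10050951-10052636 on the minus strand and Yp1 spans X:10053811-10055498 on the plus strand, with 1174 bases between them. Both have 2 exons. Yp3 spans X:13759546-13761547 on the plus strand, has 3 exons and begins 3704047 bases beyond the end of Yp1. An antisense RNA, asRNA:CR45601 (X:10054235-10055109, minus strand), is annotated over Yp1 and had 0 counts in all 72 libraries. No annotated gene overlaps Yp2 or Yp3.

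Some libraries stand apart. In 6 libraries, 4 of them first replicates of B38, over 20% of reads aligned to several places (mtB38_YB04, mtB38_YB11, mtB38_YN03, mtB38_YN07, mtI02_YN03 and mtN23_YB04, replicate 1 of each). A noncoding RNA near Yp1, asRNA:CR44894, separates haplogroups, and mtN23_YN03 replicate 2 had 30.8 CPM of it (reads per 1000000 reads in genes), against at most 1.88 CPM in the other N23 libraries. Library mtN23_YN03 replicate 2 had 1.52 CPM of Yp1. In I02, asRNA:CR44894 ranged from 0 CPM in mtI02_YB11 replicate 1 to 10.7 and 11.5 CPM in replicate 2 of mtI02_YN03 and mtI02_YN07. The lowest B38 library had 14.1 CPM. Whether the haplogroup labels of these libraries hold was not tested. All 11 male markers, among them the dosage compensation RNA roX1, the seminal Sex Peptide gene SP and the sperm gene Mst84Da, were counted in all 72. Together these markers held 6623 to 12920 CPM, with the 6 libraries of over 20% multiply aligned reads among the 7 lowest. One of them, roX2, was called for the haplogroup (adjusted p = 0.0466), where 2.04% of all tested genes were called. In batch 2, where 29.3% of all tested genes were called, janB was higher (log2 fold change 0.28), and Acp26Aa (-0.71) and Mst98Ca (-0.39) lower.

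All 3 yolk protein genes were detected at low levels, and Yp1 was the most abundant. Over 72 libraries of 2454024 to 7671784 reads in genes, 996 reads fell on Yp1, 371 on Yp2 and 409 on Yp3. These are 56.1%, 20.9% and 23% of the 1776 yolk protein reads. The assay reads the 3' end of each transcript, so these shares are in reads and are not divided by gene length. In CPM, the average was 2.91 ± 2.12 for Yp1, 1.12 ± 0.816 for Yp2 and 1.19 ± 0.81 for Yp3 (SD, n = 72). By mean CPM, 39.6% of all 17324 features were lower than Yp1, 30.9% lower than Yp2 and 31.4% lower than Yp3.

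Single libraries rest on few reads. Yp1 had between 1 and 44 reads per library with a median of 11.5, Yp2 between 1 and 19 with a median of 4, and Yp3 between 0 and 22 with a median of 5. Yp3 had no read in mtB39_YN03 replicate 1 and mtN02_YB04 replicate 2, where 3 counts, the limit that a count of 0 allows, come to 0.762 and 1.01 CPM. The spread of Yp1 over the 72 libraries was 7.36 times that of counting noise (chi-square per degree of freedom), against 2.76 for Yp2 and 2.75 for Yp3. Within the 36 pairs of libraries that share a combination it was 2.64 for Yp1, 2.25 for Yp2 and 1.95 for Yp3. The 2 libraries of a combination differed by a median of 1.31-fold in Yp1, 1.68-fold in Yp2 and 1.61-fold in Yp3, on CPM with 0.5 added. All 3 genes passed the filter on low counts, which asks for about 2.09 CPM in enough libraries of a design with groups of 2. Yp1 reached that level in 42 libraries, Yp2 in 6 and Yp3 in 9.

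The first comparison asks whether the mitochondrial haplogroup goes with a different yolk protein level. Yp1 was high in males with I02 or B38 mitochondria and low in males with N01 mitochondria. In I02 males Yp1 ranged from 2.19 to 10.7 CPM with a median of 3.91, and averaged 4.53 ± 2.30 CPM (SD, n = 12). In B38 males it ranged from 2.29 to 8.68 CPM with a median of 3.86, and averaged 4.17 ± 1.72 CPM. B39 males averaged 2.6 ± 2.2 CPM, with a range of 0.559 to 7.58, and N02 males 2.59 ± 2.22 CPM, with a range of 0.835 to 7.18. The lowest averages were those of N23, at 1.93 ± 1.52 CPM with a range of 0.233 to 5.85, and N01, at 1.61 ± 1.05 CPM with a range of 0.239 to 4.23. The ranges of all 6 haplogroups overlap.

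Tested with edgeR's quasi-likelihood F test and Benjamini-Hochberg adjustment over 12470 genes, Yp1 was the 1 member of 3 called, that is with an adjusted p under 0.05, for the haplogroup (F = 8.80, adjusted p = 0.0033), where 2.04% of all tested genes were called. Yp2 (adjusted p = 0.899) and Yp3 (adjusted p = 0.497) were not called. Whether the haplogroup differences of Yp1 are larger than those of its neighbour Yp2 was not tested. The call for Yp1 was lost in batch 1 alone (0.0642), in a model without interaction (0.112) and when the 6 libraries rich in multiply aligned reads were dropped (0.0608). It was kept without the libraries of high eggshell level (0.0128), without mtN23_YN03 replicate 2 (0.00456) and when any 1 library was left out (highest 0.00907).

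Single contrasts set each haplotype against the mean of the other 5. They share libraries, so they are 12 views of the same data. Of 36 such contrasts for the 3 genes, 2 were called, where 1.22% of all gene and contrast pairs were. Yp1 averaged 4.53 CPM in I02 and 2.58 CPM in the other 60 libraries. Its log2 fold change in I02 was 0.88 ± 0.18 (SE, adjusted p = 0.0142), with 12 of 12 libraries above the median of the others. For I02, 0.401% of all tested genes were called. Yp1 averaged 4.17 CPM in B38 and 2.65 CPM in the others. The log2 fold change in B38 was 0.70 ± 0.18 (adjusted p = 0.0116), and again 12 of 12 libraries were above the median of the others. For B38, 9.73% of all tested genes were called, so that a call in this contrast is common. All I02 and B38 libraries are batch 1, and the libraries they are set against include the 18 of batch 2, with a Yp1 median of 1.13 CPM. The CPM averages and the counts of libraries above the median are not adjusted for batch.

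Both calls depend on few libraries. When the 6 libraries rich in multiply aligned reads were dropped, Yp1 was at 0.81 in I02 (adjusted p = 0.0963) and 0.58 in B38 (adjusted p = 0.28), as log2 fold changes. The I02 call was also lost without mtI02_YB04 replicate 2 (0.0594), mtI02_YN03 replicate 1 (0.0685) or mtI02_YZH23 replicate 1 (0.0529), and the B38 call without mtB38_YB11 replicate 1 (0.0632) or mtB38_YN03 replicate 1 (0.0635). The log2 fold changes stayed near those of all libraries, at 0.81, 0.80 and 0.80 in I02 and 0.67 and 0.62 in B38. Beside the higher Yp1, B38 males had 2 of 7 tested eggshell genes called higher. These were the chorion protein genes Cp38 (log2 fold change 1.32, adjusted p = 0.0092) and Cp7Fb (0.83, adjusted p = 0.0257). The summed level of the eggshell list ranged from 12.4 to 53.8 CPM in B38 (median 22.2), from 9.25 to 33.0 CPM in I02 (median 19.2), where none of the 7 was called, and in the other 4 haplogroups from 9.10 to 39 CPM with medians of 14.3 to 17.5. Without the 5 libraries of high eggshell level, 4 of them the B38 libraries that were also rich in multiply aligned reads, Yp1 in B38 stood at 0.65 (log2 fold change, adjusted p = 0.235). In the same contrast, 2 of 11 male markers were called lower, the seminal genes SP (-0.39, adjusted p = 0.04) and Acp95EF (-0.53, adjusted p = 0.0113). Called higher was 1, roX2 (0.27, adjusted p = 0.04), and the median log2 fold change of the list was -0.10. Of 4 male-biased fat body genes, 1 was called lower, Cyp4d21 (-0.63, adjusted p = 0.000637), and 0 higher. Over all tested genes, 9.73% were called for B38 in either direction. The 11 male markers together had a median of 9425 CPM in B38, against 10219 to 10986 CPM in the other haplogroups. In the 6 libraries rich in multiply aligned reads they held 6800 to 8127 CPM, where the median of all 72 was 10427. The part of eggshell and male genes in the result was not tested.

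In N01 males Yp1 was below the median of the others in 11 of 12 libraries. It averaged 1.61 CPM in N01 and 3.16 CPM in the others. The difference, -0.72 ± 0.23 on the log2 scale, did not pass (adjusted p = 0.612). Batch 2 contributes to N01, N02 and N23 alone. In batch 1 alone, Yp1 averaged 4.53 CPM in I02 and 4.17 in B38 (n = 12 each), 2.86 in N02, 2.6 in B39 (n = 12), 2.56 in N23 and 2.17 in N01 (n = 6 each for N02, N23 and N01). The order of the highest and lowest haplogroups was thus the same within batch 1, with a smaller gap.

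**Figure D1:**
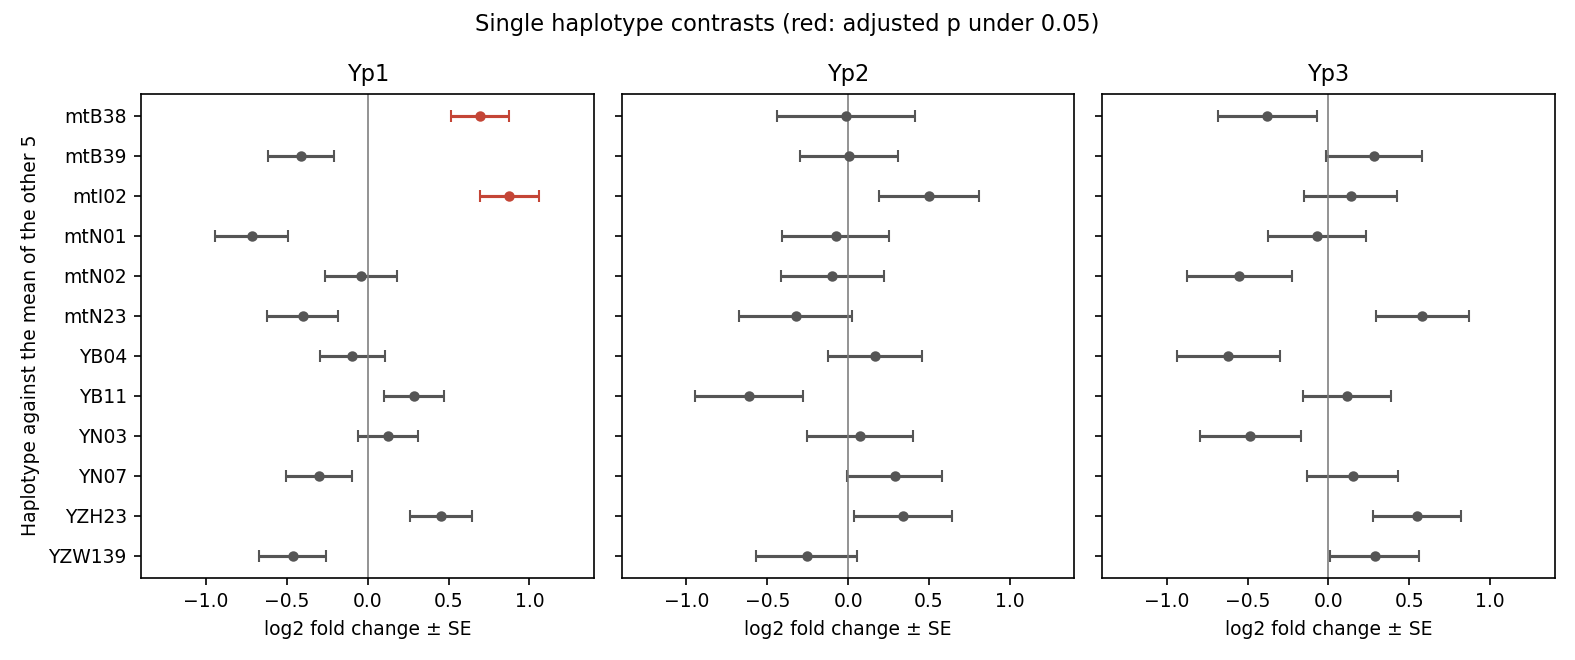
Log2 fold change, with its standard error, of Yp1, Yp2 and Yp3 for each haplotype against the mean of the other 5, from the edgeR model of all 72 libraries. Red marks an adjusted p under 0.05, which Yp1 reached in B38 (0.70) and I02 (0.88), 2 of the 36 contrasts.

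The second comparison asks the same of the Y haplotype. No yolk protein gene was called for the Y by edgeR (adjusted p = 0.224 for Yp1, 0.60 for Yp2 and 0.346 for Yp3), where 4.15% of all tested genes were. Before adjustment, Yp1 alone had a p under 0.05 (0.0388). Neither DESeq2 nor limma-voom called a member either. Yp1 averaged 3.64 ± 2.56 CPM with ZH23, 3.07 ± 3.15 with N07, 2.92 ± 1.37 with B11, 2.78 ± 1.50 with N03, 2.70 ± 1.84 with B04 and 2.33 ± 2.01 CPM with ZW139 (SD, n = 12 each). Each of these neighbours in the order differs by less than its SD. The widest contrasts of Yp1 were those of ZW139, at -0.46 ± 0.21 (adjusted p = 0.252), and ZH23, at 0.45 ± 0.19 (adjusted p = 0.359).

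Yp2 and Yp3 showed no called difference in any haplotype contrast. Yp2 averaged 1.50 ± 1.17 CPM in I02, between 1.03 and 1.09 CPM in B38, B39, N01 and N02, and 0.931 ± 0.794 CPM in N23. Its widest contrasts were Y haplotype B11, with 0.732 CPM in B11 against 1.19 CPM in the others (log2 fold change -0.61 ± 0.34, adjusted p = 0.482), and I02 (0.50 ± 0.31, adjusted p = 0.582). Yp3 averaged 1.55 ± 0.938 CPM in N23, 1.46 ± 1.11 in B39, 1.19 ± 0.786 in N01, 1.18 ± 0.73 in I02, 0.933 ± 0.528 in B38 and 0.82 ± 0.51 CPM in N02. Its widest contrasts were Y haplotype B04, with 0.787 CPM in B04 against 1.27 CPM in the others (-0.62 ± 0.32, adjusted p = 0.25), and N23 (0.58 ± 0.29, adjusted p = 1). Read by size alone, the lowest and highest haplogroup averages of Yp3 were N02 and N23, which are neither the lowest nor the highest of Yp1.

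The share of yolk protein reads that fell on Yp1 differed between haplogroups, with both batches pooled. It was 67.4% of 380 reads in B38, 63.8% of 392 in I02, 57.5% of 247 in N02, 48.8% of 320 in B39, 46.3% of 227 in N23 and 41.4% of 210 in N01. Yp1 had 3.94 reads per Yp2 read in B38, against 1.47 in N01. These shares are sums over 12 libraries each and carry no test. Those of N01, N02 and N23 include batch 2, where Yp1 took 42.3% of the yolk protein reads, against 58.7% in batch 1. In batch 1, N23 had 76 Yp1, 17 Yp2 and 40 Yp3 reads, so that its Yp1 share there was above that of B39. The order of haplogroups is thus in part tied to batch.

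The third comparison is the one the crossing design was built for, whether the level in a combination departs from what its haplogroup and its Y haplotype give on their own. For Yp1 the 2 libraries of a combination, from separate crosses, often lay close together while combinations of the same haplogroup lay far apart. Among N02 males, those with Y haplotype ZH23 had 6.32 and 7.18 CPM of Yp1 (32 reads each), and the other 10 N02 libraries had between 0.835 and 4.32 CPM. Yp2 in the same mtN02_YZH23 libraries was at 2.57 and 1.57 CPM. Among I02 males, those with N07 had 10.7 and 6.61 CPM, the highest and the fifth highest of all libraries. With the same Y haplotype N07, N01 males had 0.762 and 0.239 CPM of Yp1, from 3 reads and 1 read, and B39 males 0.891 and 1.30 CPM. Y haplotype N07 thus held both the highest and the lowest combination mean of Yp1.

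Within B39, males with B04 had 0.559 and 0.661 CPM of Yp1 from 4 reads each, while males with N03 had 3.30 and 5.85 CPM. B38 males with ZH23 had 8.68 and 4.58 CPM. Not all pairs were close: mtB39_YZW139 had 2.19 and 7.58 CPM, mtN23_YN07 had 5.85 and 1.04 CPM, and mtN02_YB11 had 4.32 and 0.866 CPM. In mtN23_YN07 and mtN02_YB11 the low library is from batch 2. Intervals for single libraries are wide, as in mtN02_YZH23 replicate 1 with 4.48 to 8.93 CPM and mtN01_YN07 replicate 2 with 0.0422 to 1.36 CPM (95% Wilson intervals, counting error only).

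**Figure D2:**
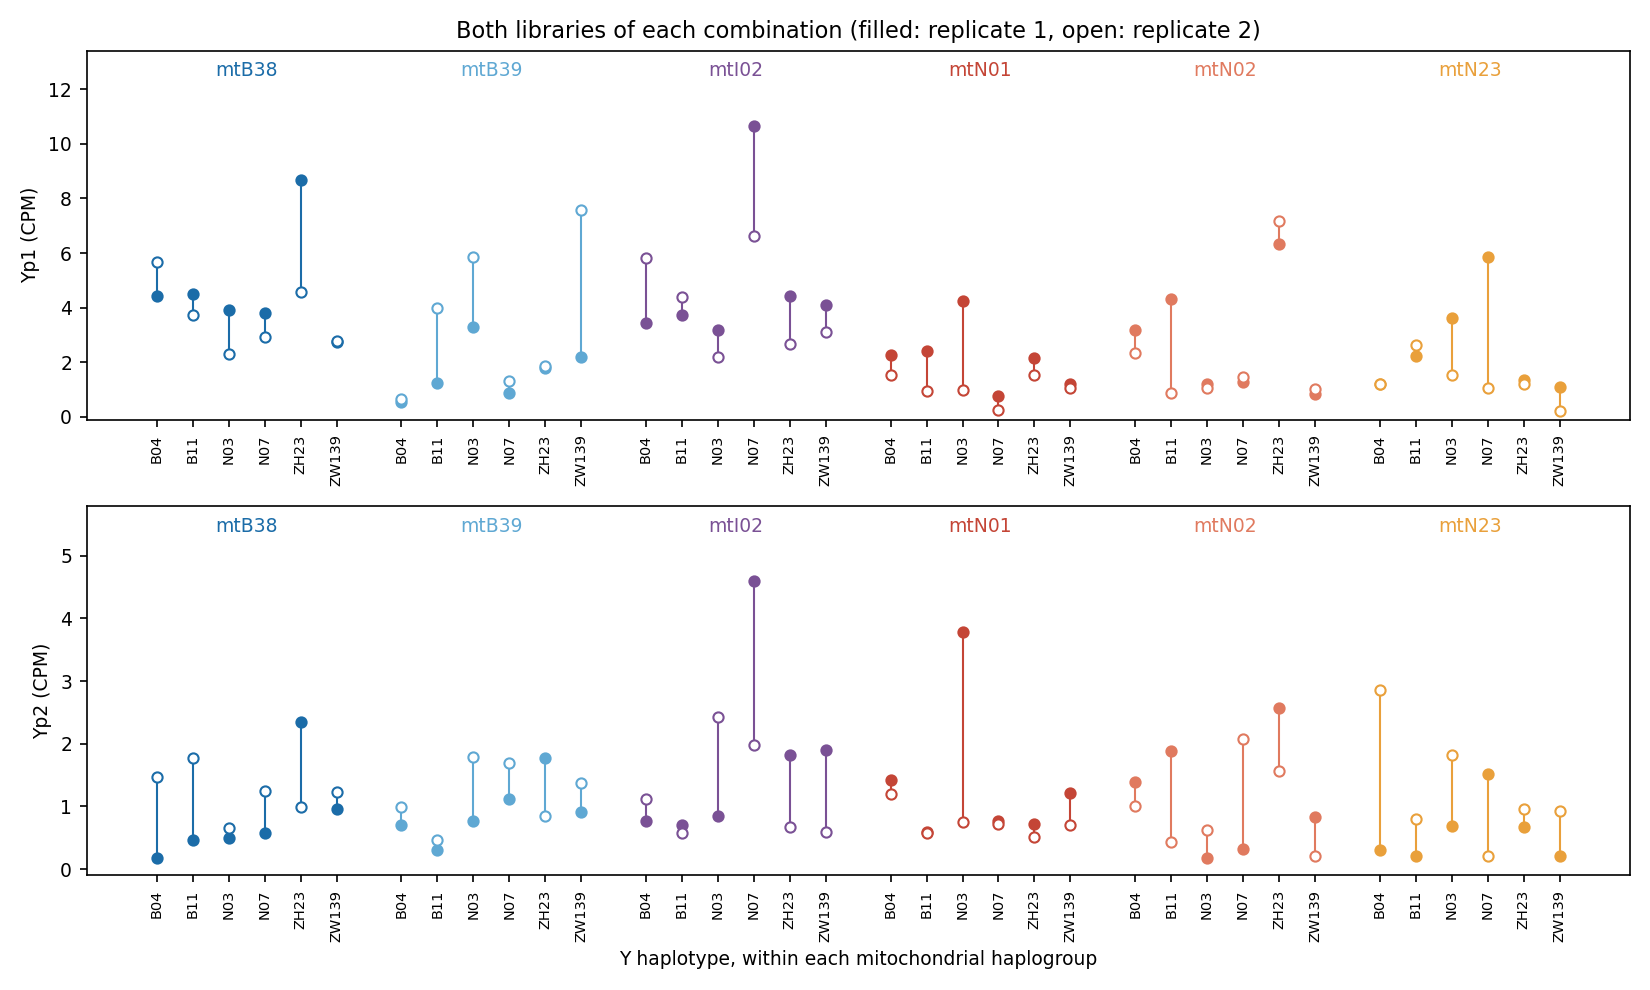
Yp1 (top) and Yp2 (bottom) in CPM in both libraries of each of the 36 combinations, grouped by haplogroup. Filled points are replicate 1, open points replicate 2, and a line joins the pair. The pairs mtI02_YN07 (10.7 and 6.61 CPM) and mtN02_YZH23 (6.32 and 7.18 CPM) stand highest for Yp1.

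The edgeR test called 0 of 12470 genes for the interaction, which is 0.0%, and 239 genes had an unadjusted p under 0.05. Yp1 had the smallest p of all 12470 genes (2.5e-05, adjusted p = 0.311), so that it was first in rank but did not pass. Yp2 and Yp3 were at an adjusted p of 1. DESeq2 called 10 genes, with Yp1 first (adjusted p = 0.000172), and limma-voom called 0. Yp1 ranked first in 9 of 11 alternatives that give this test and in 71 of 72 models that leave out 1 library. It passed in edgeR without mtI02_YN03 replicate 2 (0.0207) and without mtB39_YZW139 replicate 1 (0.0437). Without mtI02_YN03 replicate 2, the unadjusted p of Yp1 was larger than with all libraries, and its rank fell from first to 23. The adjusted p of Yp1 was lower there because other genes had smaller p-values, so the evidence for Yp1 itself did not grow. Whether the interaction of Yp1 was called thus depended on the tool and, in edgeR, on the libraries kept.

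The variance of log2 CPM was split by source as a description, with no test. In Yp1 the interaction held 38.5%, batch 22.6%, haplogroup 18.6% and Y haplotype 5.62%, and the residual, what the 2 libraries of a combination differ by beyond batch, the remaining 14.7%. By degrees of freedom alone 35.2% would fall to the interaction, 1.41% to batch and 7.04% each to haplogroup and Y. The interaction of Yp1 lay near that share, but the median over all genes was lower, at 25.2%. Of all tested genes, 93.6% had a smaller interaction share than Yp1, 81.3% than Yp2 (32.6%) and 84.2% than Yp3 (33.6%). In Yp1 the residual was small. The residual share was lower in 7 of 12470 genes, and its median over all genes was 45.0%. In Yp2 it was 52.5% and in Yp3 43.2%, where 49.3% would fall to it by degrees of freedom. Batch came first in the split and thus also took what it shares with the haplogroup.

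**Figure D3:**
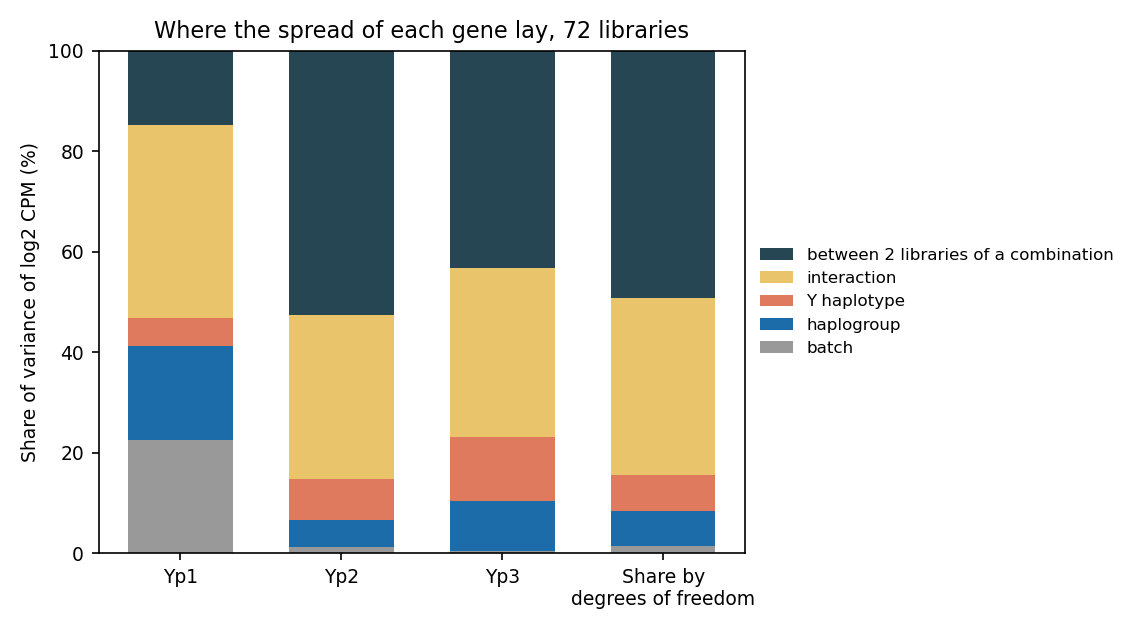
Share of the variance of log2 CPM over 72 libraries, in percent, with batch first, then haplogroup, Y, interaction and last the residual, the difference between the 2 libraries of a combination beyond batch. The last bar shows the shares that the degrees of freedom alone would give. The top segment is 14.7% in Yp1, 52.5% in Yp2 and 43.2% in Yp3.

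Yp1 also differed between the batches. It averaged 1.56 ± 1.52 CPM in batch 2 (SD, n = 18) and 3.35 ± 2.12 CPM in batch 1 (n = 54). Within N01, N02 and N23, the haplogroups found in both, it averaged 1.56 CPM in batch 2 and 2.53 ± 1.71 CPM in batch 1 (n = 18 each). With the combinations in the model, Yp1 was lower in batch 2 (log2 fold change -0.79 ± 0.22, adjusted p = 0.00668), in a comparison in which 29.3% of all tested genes were called. Batch 2 holds second replicates only, so that batch and replicate cannot be told apart in these haplogroups. Yp2 (-0.08 ± 0.34, adjusted p = 0.879) and Yp3 (-0.10 ± 0.30, adjusted p = 0.843) were not called. Their means were 0.997 CPM in batch 2 and 1.16 CPM in batch 1 for Yp2, and 1.19 CPM in both for Yp3. Yp1 took 42.3% of the yolk protein reads in batch 2 and 58.7% in batch 1.

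Several genes of the hormone regulator list and of the lipoprotein uptake and endocytosis list were higher in batch 2. These lists were chosen with earlier results of the data known. The hormone regulators had a median log2 fold change of 0.42 in batch 2, against -0.02 over all genes. Of the 9 tested, 5 were called higher and 0 lower, where 29.3% of all tested genes were called in either direction. They were Kr-h1, the transcription factor induced by juvenile hormone (1.82 ± 0.28), ftz-f1 (0.91), the juvenile hormone receptors gce (0.61) and Met (0.57), and the ecdysone receptor EcR (0.42). Of 9 tested genes of lipoprotein uptake and endocytosis, 7 were higher in batch 2, among them the lipophorin receptors LpR1 (0.69) and LpR2 (0.54) and the clathrin heavy chain Chc (0.80), with a list median of 0.54. The others were mgl (0.48), the dynamin shi (0.75), and the vesicle GTPases Rab5 (0.51) and Rab11 (0.78). The most abundant hormone regulator, foxo at 58.2 CPM, was not called. None of either list was called for the haplogroup or the Y by the F tests. In the B38 contrast, mgl was called higher (0.45, adjusted p = 0.0248), where 9.73% of all tested genes were called. The yolk receptor yl itself had 43 reads in all 72 libraries together and 0 in 41 of them.

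Of 8 sex determination genes, none was called for haplogroup, Y, interaction or batch. Doublesex, dsx, averaged 12.2 CPM (haplogroup adjusted p = 0.955), and the most abundant members were Sxl at 63.2 CPM and fru at 57.3 CPM. In B38, fru, the courtship regulator, was called higher (0.35, adjusted p = 0.0158), where 9.73% of all tested genes were called. The counts do not separate the male and female splice forms of dsx, tra or Sxl.

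The fat body, the main source of yolk protein outside the ovary, was well represented, with apolpp, the lipophorin precursor, at 1520 CPM and the transferrin Tsf1 at 957 CPM. Of 10 tested fat body genes, Tsf1 was called for the haplogroup (adjusted p = 0.0172), and apolpp, Tsf1 and FASN1 for the Y. In batch 2, apolpp (0.48), Ilp6 (0.72) and bmm (0.57) were higher, and Tsf1 (-0.46) and Mtp (-0.36) lower. For this and the next 2 lists, the shares called over all tested genes were 2.04% for the haplogroup, 4.15% for the Y and 29.3% for batch. Of 4 genes known for male-biased expression in the fat body, Cyp4d21 was called for the haplogroup, and Obp99b and sxe2 for the Y. Cyp4d21 (-0.43) and sxe2 (-0.72) were lower in batch 2, and takeout, to, at 60.9 CPM was not called. Of the 7 tested lipases related in sequence to yolk proteins, CG6277 was called for the haplogroup and CG6295 and CG5162 for the Y. In batch 2, CG5966 was higher (0.86), and CG5162 (-0.73), CG6283 (-0.53), CG6295 (-1.22) and CG6296 (-1.59) were lower. Of these lists, the B38 contrast called Ilp6 (0.47), CG5966 (0.99) and CG6283 (0.51) higher and Cyp4d21 (-0.63) lower, where 9.73% of all tested genes were called. In whole males, fewer cells of a type and less RNA per cell cannot be told apart.

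Genes of the ovary, which female tissue in a pool would bring, varied in level, and some were above the yolk protein genes. Of the 22 eggshell genes listed, 21 matched a feature, 7 passed the filter, and 11 had no read in more than 36 libraries. Their summed level ranged from 9.10 to 53.8 CPM with a median of 16.8. Cp15, at 8.46 CPM on average, and Cp38, at 2.82 CPM, were its most abundant members. Cp15 was lower in batch 2 (-0.48, adjusted p = 0.0484), and yellow-g was called for the Y (adjusted p = 0.0447). Over all tested genes, 29.3% were called for batch and 4.15% for the Y. Of 8 oocyte genes, 2 passed the filter, grk at 14.1 CPM, which was lower in batch 2 (-0.64, adjusted p = 0.00151), and fs(1)N at 6.54 CPM. The oocyte determinant bcd had 12 reads in all 72 libraries, and the spermathecal proteases Send1 and Send2 had 4 and 19.

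Against this background, 2 libraries had many reads of one class of eggshell gene. The 7 vitelline membrane genes, which encode the inner eggshell layer and were grouped after their values were seen, had 89 reads in mtN01_YN03 replicate 1. The next library had 11, and the median was 2.5. In the same library Yp1 had 19 reads and Yp2 17, which is 4.23 and 3.78 CPM, the highest Yp1 among N01 libraries and the second highest Yp2 of all. Its partner, mtN01_YN03 replicate 2, had 1.00 CPM of Yp1, 0.751 CPM of Yp2 and 2 vitelline membrane reads. Yp3 was at 1.11 CPM in replicate 1 and 0.501 CPM in replicate 2.

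The other library is mtN02_YN07 replicate 1, in which 6 chorion genes, grouped in the same way, had 44 reads, where the next library had 20 and the median was 6. The group held Cp7Fa, Cp7Fc, Cp16, Cp18, Cp19 and Cp36, and left out Cp15, Cp38 and Cp7Fb. In that library, Cp18 gave 29 of the 44 reads. Yolk protein reads were few there, with 1.27 CPM of Yp1, 0.317 CPM of Yp2 and 0.475 CPM of Yp3. The 6 libraries highest in Yp1, at 6.32 to 10.7 CPM, had between 0 and 5 vitelline membrane reads. They were both libraries each of mtI02_YN07 and mtN02_YZH23, mtB38_YZH23 replicate 1 and mtB39_YZW139 replicate 2. Without mtN01_YN03 replicate 1 and mtN02_YN07 replicate 1, the haplogroup test of Yp1 stayed called (adjusted p = 0.00357), its log2 fold change was 0.91 in I02 and 0.71 in B38, both still called, and 2 of 36 contrasts were called.

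A female-biased gene of the fat body, fit, was highest in another library. It reached 23.5 CPM, from 97 reads, in mtI02_YN07 replicate 1, against a mean of 5.55 ± 3.65 CPM (SD, n = 72). The female somatic list, of which fit and eloF (1.63 CPM) were the most abundant, had no call. The same library, mtI02_YN07 replicate 1, was the highest of all 72 for Yp1 (10.7 CPM, 44 reads) and for Yp2 (4.60 CPM, 19 reads), and had 1.94 CPM of Yp3. It had 8 reads of the chorion group and 1 read of yl. Its partner had 10.1 CPM of fit, 6.61 CPM of Yp1 and 1.98 CPM of Yp2. The libraries next highest in fit had less Yp1. These were mtN23_YN03 replicate 1, with 14.3 CPM of fit and 3.62 CPM of Yp1, and mtB39_YZW139 replicate 1, with 13.1 and 2.19 CPM. Without mtI02_YN07 replicate 1, the log2 fold change of Yp1 in I02 was 0.81 (adjusted p = 0.0414). The part of fit-expressing cells in the yolk protein level was not tested.

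**Figure D4:**
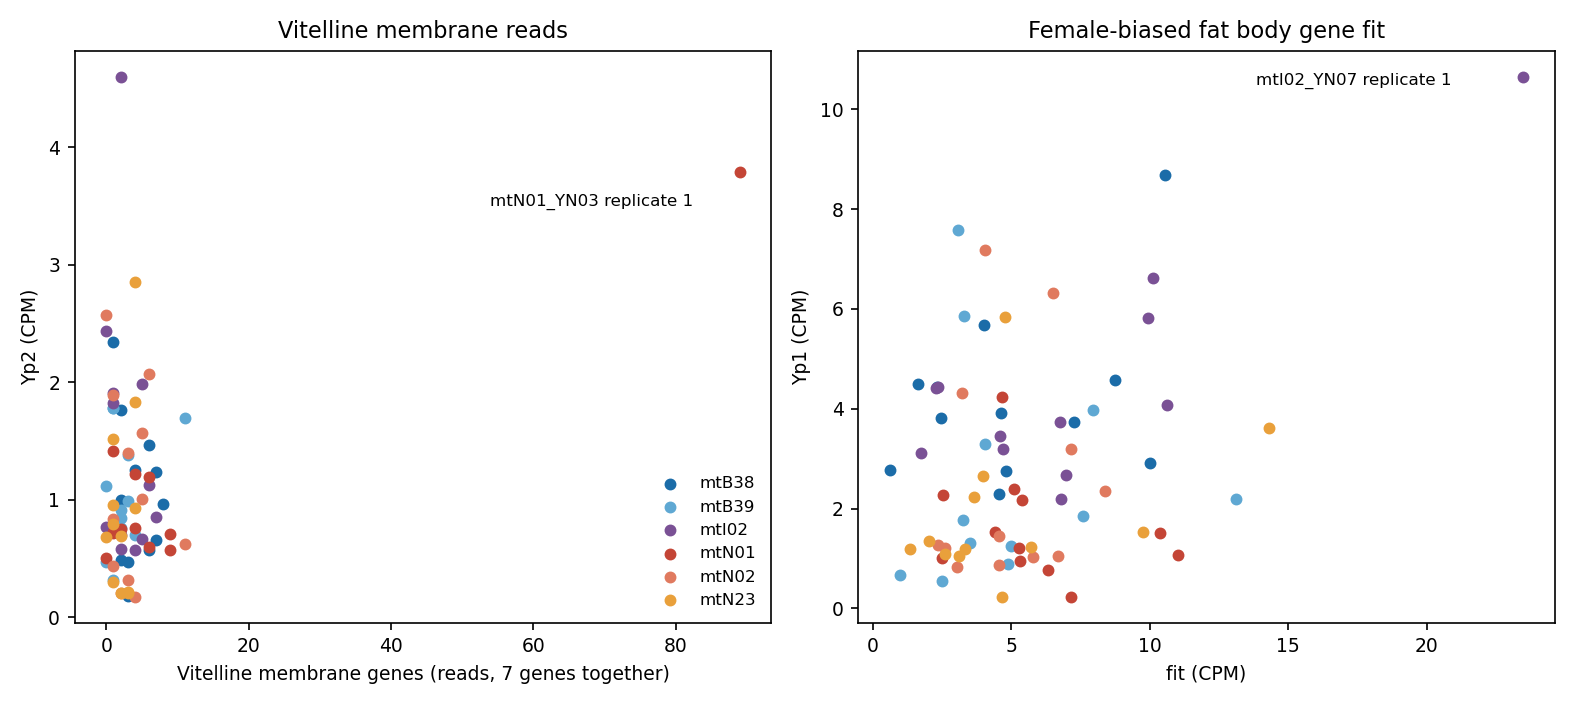
Left: Yp2 in CPM against the reads of 7 vitelline membrane genes together, per library. Right: Yp1 in CPM against fit in CPM. Colours mark the haplogroup. The library mtN01_YN03 replicate 1 stands apart with 89 vitelline membrane reads and 3.78 CPM of Yp2, and mtI02_YN07 replicate 1 with 23.5 CPM of fit and 10.7 CPM of Yp1.

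Across libraries, Yp1 and Yp2 moved together and Yp3 did not follow them. The permutations shuffled all 72 libraries freely, so that differences between haplogroups, Y haplotypes or batches enter each relation. In a family of 15 relations, with permutation p-values (100000 permutations, 2-sided) and Benjamini-Hochberg adjustment, log2 CPM of Yp1 and Yp2 correlated over 72 libraries with Pearson's r = 0.42 (p = 0.00028, adjusted p = 0.0042) and Spearman's rho = 0.37 (p = 0.00134, adjusted p = 0.014). Pearson's r was 0.45 in batch 1, 0.31 in batch 2 and 0.44 without the 2 libraries farthest from the median of Yp1. Yp1 and Yp3 gave r = -0.05 (p = 0.657, adjusted p = 0.759) and rho = 0.02 (p = 0.862, adjusted p = 0.972). Yp2 and Yp3 gave r = 0.17 (p = 0.147, adjusted p = 0.312) and rho = 0.20 (p = 0.101, adjusted p = 0.189).

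Of the relations with the summed eggshell level, Yp1 was higher with more of it (r = 0.32, p = 0.0055, adjusted p = 0.0412, and rho = 0.34, p = 0.00374, adjusted p = 0.014). Within batches r was 0.22 in batch 1 and 0.27 in batch 2, and it was 0.28 without the 2 farthest libraries. B38, high in Yp1, also had the highest median eggshell level (22.2 CPM), and the part of such group differences in the relation was not tested. Yp2 showed no such relation (r = -0.12, p = 0.298, adjusted p = 0.447, and rho = -0.14, p = 0.225, adjusted p = 0.375). For Yp3 the relation ran the other way (r = -0.29, p = 0.0148, adjusted p = 0.0555, and rho = -0.34, p = 0.0033, adjusted p = 0.014), with r = -0.34 in batch 1 and -0.42 in batch 2. Yp3 was higher with more of the summed fat body genes (r = 0.31, p = 0.00839, adjusted p = 0.0419, and rho = 0.35, p = 0.0027, adjusted p = 0.014), with 0.32 in batch 1, 0.34 in batch 2 and 0.41 without the 2 farthest libraries. Fat body genes gave r = -0.05 with Yp1 and -0.04 with Yp2. Yp2 correlated with the female somatic markers (r = 0.27, p = 0.0219, adjusted p = 0.0658) and with the share of reads aligned to several places (r = -0.26, p = 0.0293, adjusted p = 0.0733), and neither passed. The 4 remaining relations had an adjusted p of at least 0.312 by Pearson and 0.189 by Spearman. Among them was that of the female somatic markers with Yp1 (r = 0.10, p = 0.414, adjusted p = 0.565, and rho = 0.04, p = 0.723, adjusted p = 0.904). For it, r was 0.31 in batch 1 and -0.16 in batch 2.

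The genes whose log2 CPM over the 72 libraries was most like that of each member differ between the 3. Nearest to Yp1 were CG2233 (r = 0.56), CG14245 (0.54), CG14292 (0.52), the beta-galactosidase gene Ect3 (0.52) and CG15533 (0.51). CG14245 and CG14292 were themselves called for the haplogroup (adjusted p = 2.72e-05 and 0.0179). Nearest to Yp2 were CG6729 (0.43), Lime (0.42), the C-type lectin lectin-37Db (0.42), CG9673 (0.41) and c12.1 (0.41). Nearest to Yp3 were CG9691 (0.60), the feature FBtr0089857 (0.54), the neprilysin-like Nepl21 (0.54), CG12171 (0.52) and CG14820 (0.52). These are the highest values among 12470 genes and are given as a description.

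Genes beside the yolk protein genes were tested as well. Within 50 kb of Yp1 and Yp2, 6 other genes were tested and 1, ZAP3, was called for the haplogroup (adjusted p = 0.0221), at 0.69 in B38 and -0.14 in I02 as log2 fold changes. Over all genes 2.04% were called for the haplogroup. CG15312, the next gene beyond Yp1, had 0.44 in B38 and -0.13 in I02 (adjusted p = 0.46 for the haplogroup). Within 50 kb of Yp3, 18 genes were tested and none was called for the haplogroup. For the Y, 1 gene was called in each stretch, CG32694 near Yp1 and Yp2 (adjusted p = 0.0266) and CG11134 near Yp3 (0.0481). Over all genes 4.15% were called for the Y. Further out on the same stretch of the X, asRNA:CR44894 (X:10114340-10208574) had means of 37.4 CPM for B38, 32.9 CPM for N01 and 30.9 CPM for N02, and of 3.52 CPM for I02, 3.12 CPM for N23 and 0.424 CPM for B39. Without mtN23_YN03 replicate 2 the N23 mean was 0.605 CPM (n = 11). The haplogroups that were high in Yp1, I02 and B38, were thus on opposite sides for this RNA.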

How the data were processed

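Pools of 10 whole males were sequenced by 3' end sequencing of known strand (QuantSeq 3' FWD, Lexogen), per the labels' protocols. Tools listed in the submitters' processing notes are HTSeq 0.11.0, STAR 2.6, Trimmomatic 0.36 and FastQC 0.11.5, and DESeq2 with no version. Genome build and annotation: not given in the sources used here. All values start from raw gene counts as the authors deposited them, identical in the table of the series and in all 72 files of single libraries. Reads carry no molecular identifiers, so intervals and limits cover counting error only. Replicates of a combination come from separate crosses, and p-values of the F tests and contrasts measure the spread between such pools. Those of the correlations come from shuffling all 72 libraries without regard to haplogroup, Y or batch.

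The filterByExpr function of edgeR 4.0.16, applied over the 36 combinations, left 12470 of 17324 features. A negative binomial model of all 72 libraries, with terms for batch, haplogroup, Y and the interaction, was fitted after TMM scaling by edgeR's quasi-likelihood method in R 4.3.3, with 35 residual degrees of freedom. F tests and contrasts of each haplotype against the mean of the other 5 were 2-sided, adjusted by Benjamini-Hochberg over all 12470 genes and called at 0.05. Correlations used log2 CPM with a prior count of 2 (list sums, log2 of CPM plus 1) in Python 3.11.15 with numpy 2.4.6 and scipy 1.17.1, and levels are CPM, that is reads per 1000000 reads in genes. The scripts were tested on simulated data. The alternatives, including DESeq2 1.42.0 and limma-voom of limma 3.58.1, changed 1 choice at a time.

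The members and the 10 gene lists (96 entries, 95 matched to a feature) were chosen with earlier results of these data known. Named genes are the 3 members, called genes and the 2 most abundant of a list, and the 5 genes most like each member. The rest were chosen after their values were seen, namely yl, bcd, Send1, Send2, dsx, roX1, Mst84Da, asRNA:CR45601, asRNA:CR44894, ZAP3, CG15312, CG32694, CG11134 and the vitelline membrane and chorion groups. The main model does not pair libraries by replicate number, and a replicate block is among the alternatives.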

Additional observations from a re-analysis of the deposited data

Results flagged for a closer look

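A signal of eggshell genes appeared in 2 libraries of males. The 7 vitelline membrane genes had 89 reads in mtN01_YN03 replicate 1, against 11 in the next library and a median of 2.5. That library also had 17 Yp2 reads (3.78 CPM), the second highest level of the 72. A group of 6 chorion genes had 44 reads in mtN02_YN07 replicate 1, against 20 in the next library and a median of 6, with 2 Yp2 reads (0.317 CPM) in that library. Both groups of genes were put together after their values were seen, and the source of these reads was not tested.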

How the results depend on the processing

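Of 249 values under alternatives other than leaving out 1 library, 231 were rated the same as in the main model. For tests and correlations this means the same side of the threshold, and the same direction where there is one. For the number of contrasts called it means a number close to the main one. For the residual share it means a change below the SD over models that leave out 1 library. The haplogroup test of Yp1 lost its call in batch 1 alone (adjusted p = 0.0642), without the interaction (0.112) and without the 6 libraries rich in multiply aligned reads (0.0608), over a range of 0.000107 to 0.112 for 12 alternatives. Of 36 contrasts, 0 were called without the interaction, 0 without those 6 libraries and 1 without the libraries of high eggshell level. Without the interaction, the log2 fold change of Yp1 was 0.78 in I02 (adjusted p = 0.148) and 0.53 in B38 (0.175). The interaction of Yp1 passed with DESeq2 (0.000172). The batch difference reversed to 0.10 for Yp2 without the libraries of high eggshell level and to 0.035 for Yp3 with a replicate block, neither called. With plain CPM the relations of Yp3 with eggshell genes (r = -0.31), Yp2 with female somatic markers (0.33) and Yp2 with the share of multiply aligned reads (-0.28) passed. The residual share of Yp1 was 14.1% with a prior count of 0.5. For all of these the cause was not tested. With 1 library left out, the adjusted p of Yp1 ranged from 0.000904 to 0.00907 for the haplogroup and from 0.0207 to 1 for the interaction, and the batch difference from -0.88 to -0.67 for Yp1, -0.28 to 0.10 for Yp2 and -0.26 to 0.079 for Yp3. The main model did not pair libraries by replicate number. Over 630 pairs of combinations, the replicate differences correlated from -0.58 to 0.743 (median 0.098), with 49.8% over 0.1. All 6 libraries rich in multiply aligned reads are replicate 1. These values do not show that replicates 1 and 2 lack a shared difference. With the replicate block the haplogroup test of Yp1 gave an adjusted p of 0.00196, and the block changed no call on the members. The few reads per library limit what Yp2 and Yp3 can show.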
